A study of Mus musculus with 32 samples.

Results

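Brown adipose tissue (BAT) of *Gpr146* knockout mice was compared with BAT of wild-type mice, on 8 of the 32 arrays of the series and over all 24646 genes that the deposited BAT table gives a symbol. The wild-type group was 4 male mice labelled wild type, and the knockout group was 4 males labelled as lacking *Gpr146* in the whole body, from a line made with CRISPR/Cas9 on C57BL/6J and bred from heterozygous parents. All 8 mice were 20 weeks old, had been on a high-fat diet (HFD) for 3 months and were fasted overnight before collection, so neither group stands for lean, fed or cold-exposed BAT. Liver, epididymal (eWAT) and inguinal (iWAT) fat of mice of the same 2 groups make up the other arrays. The genotype comparison was fitted without and with a covariate for skeletal muscle, the mean log2 level per array of *Acta1*, *Myh1*, *Myh4*, *Tnnt3* and *Actn3*.

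BAT burns lipid to make heat. Noradrenaline acts on beta-adrenergic receptors of the brown adipocyte, cyclic AMP drives lipolysis and transcription of the thermogenic genes, and UCP1 lets protons back across the inner mitochondrial membrane without making ATP. Cycles of creatine phosphorylation and of calcium pumping are further routes by which adipocytes can spend energy. GPR146 is an orphan G protein-coupled receptor known from the liver, where it acts on plasma cholesterol through ERK signalling and SREBP2. The comparison asks whether loss of the receptor went with another level of the thermogenic genes, or of other genes, in BAT.

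The labelled tissue was checked against its markers. All 12 measured brown adipocyte markers lay above the median of the table, 2.84 on the log2 scale, and *Ucp1* and *Cidea* were above 10.8 on every array. Of 10 markers of white adipocytes, 6 lay above that median. The arrays were alike in range: their medians lay between 2.82 and 2.86, and across genes the lowest r of any pair of arrays was 0.981 and the highest 0.991.

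Skeletal muscle genes stood high in 3 arrays, called the arrays with muscle here, which had a mean of the 5 genes above 6. The mean log2 level of the 5 muscle genes was 3.15, 7.27, 8.17 and 3.00 in wild-type replicates 1 to 4, and 3.06, 8.22, 3.92 and 3.05 in knockout replicates 1 to 4. Wild-type replicates 2 and 3 and knockout replicate 2 thus stood apart, and the genotypes overlapped throughout. Over all 27 muscle markers the array means ran from 2.87 to 6.68 in wild-type and from 2.80 to 6.91 in knockout mice. Knockout replicate 3 was the highest of the other arrays, at 3.92 for the 5 genes and 3.30 for the 27 markers. It stays in the fits without the 3 arrays, so a little muscle may remain there. In the fit with the covariate, 111 genes had a slope on muscle past the threshold of an adjusted p of 0.05, 110 of them positive, and these included all 22 of the 22 muscle markers that the covariate does not hold. Wild-type mice have 2 such arrays and knockout mice 1, and the median difference of the 27 markers was -0.59 without the covariate and 0.01 with it.

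**Figure D1:**
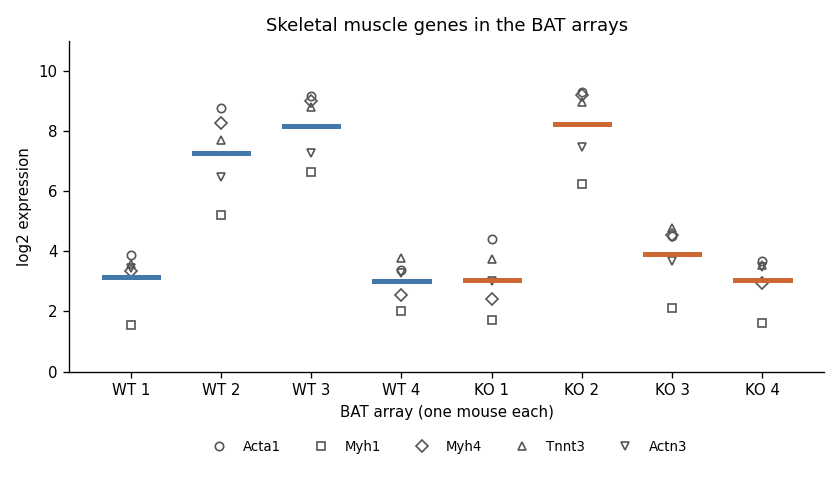
Log2 expression of 5 skeletal muscle genes (open symbols) on each of the 8 BAT arrays, with the mean of the 5 as a bar, blue for wild-type (WT) and orange for knockout (KO) mice. The bars of WT 2, WT 3 and KO 2 lie at 7.27, 8.17 and 8.22, and those of the other 5 arrays lie between 3.00 and 3.92.

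Another array set itself apart at the targeted locus. *Gpr146* measured 5.10, 5.42, 5.34 and 5.60 in wild-type and 3.82, 4.69, 4.05 and 4.27 in knockout mice. The 2 groups did not overlap, knockout values being the lower, and the signal left in knockout BAT stayed above the median of the table. The difference was -1.16 ± 0.18 (SE) with an adjusted p of 0.0727 from limma, and -1.11 with an adjusted p of 0.0975 with the covariate, so that the targeted gene itself did not pass the threshold. For a single gene, the two-sided exact permutation test gave p = 0.0286, the smallest that 4 against 4 mice allow. The positions of the probes are not given in the tables, and a probe outside the deleted stretch would not report the deletion. *C130050O18Rik*, the next gene along the chromosome in the RefSeq annotation, measured 5.85, 3.06, 3.43 and 3.35 in wild-type and 6.79, 6.50, 6.14 and 7.09 in knockout mice. Wild-type replicate 1 lay nearer to the knockout mice than to its own group there, and it was also the wild-type mouse with the least *Gpr146*. The difference was 2.71 ± 0.52 (adjusted p = 0.108), and without wild-type replicate 1 it was 3.35 (adjusted p = 0.000525). Its *Gpr146* level was above that of all knockout mice, and its *C130050O18Rik* level was not like that of its group, so that these values do not settle whether its label is right, and means of the wild-type group hold this mouse as labelled. What sets it apart was not tested. For a gene at which this mouse lies on the side of the knockout mice, leaving it out must widen the difference. Genes that pass only without it are given below as values and are no separate support for a difference. Without it *Gpr146* itself passed, with a difference of -1.25 (adjusted p = 0.0388).

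Without the covariate, 7 of 24646 genes passed the threshold (0.0284%), 1 higher and 6 lower in knockout BAT, each with an adjusted p of 0.0483. With the covariate, 0 of 24641 genes passed (0%), and the smallest adjusted p was 0.0819. The differences of the 7 genes hardly moved between the fits. At an unadjusted p below 0.05, 1294 genes were higher and 1833 lower without the covariate (5.25% and 7.44% of those tested), and 1259 were higher and 1822 lower with it (5.11% and 7.39%). Quantile normalization turned the split over all genes at that level to 1515 higher and 1432 lower. Without the 3 arrays with muscle the counts over all genes were 735 and 1022 (2.98% and 4.15%). Lists are read against these shares where those arrays are left out below. That fit keeps wild-type replicates 1 and 4 and knockout replicates 1, 3 and 4. It has fewer mice, and wild-type replicate 1 weighs more in its wild-type mean. Whether a count that falls there does so because of muscle was not tested. No overlap between the groups was seen for 817 genes higher (3.31%) and 965 genes lower (3.92%) in knockout BAT, and all 7 genes past the threshold are among these.

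**Figure D2:**
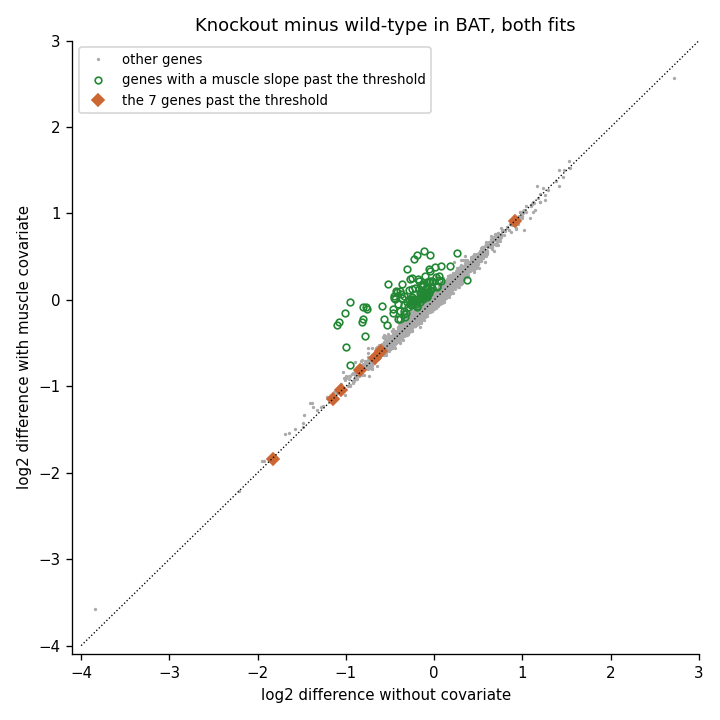
Log2 difference between knockout and wild-type BAT for each gene, without the muscle covariate (horizontal axis) and with it (vertical axis), with the dotted line marking equal values. The 7 genes past the threshold (diamonds) lie on the line, and the 111 genes with a muscle slope past the threshold (green circles) lie mostly above it.

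The 7 genes fall in lipid synthesis, acyl-CoA and sterol metabolism, signalling at the cell surface, mRNA decay and splicing. *Agpat2*, the acyltransferase that makes phosphatidic acid on the way to triglyceride and whose loss causes lipodystrophy, measured 9.96, 10.05, 10.03 and 9.98 in wild-type and 9.35, 9.46, 9.43 and 9.36 in knockout mice. Both groups were tight, with SDs of 0.05 each, and *Agpat2* fell by 0.60 ± 0.07 (SE), which makes the wild-type level 1.52 times that of the knockout. *Acot2*, a mitochondrial thioesterase that frees fatty acids from long-chain acyl-CoA and is a PPAR alpha target, measured 8.70, 8.86, 9.09 and 9.15 in wild-type and 8.19, 7.94, 7.74 and 7.72 in knockout mice. The groups did not overlap, and *Acot2* fell by 1.06 ± 0.13, a wild-type level 2.08 times that of the knockout. *Hmgcs1*, the cytosolic HMG-CoA synthase of cholesterol synthesis, measured 8.82, 9.07, 9.12 and 9.12 in wild-type and 8.01, 8.35, 8.30 and 8.09 in knockout mice. It fell by 0.85 ± 0.11, and wild-type replicate 1 was the lowest wild-type mouse.

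*Pmepa1*, a transmembrane protein induced by TGF-beta that damps SMAD signalling, showed the largest of these differences. It measured 8.12, 9.06, 8.73 and 9.11 in wild-type and 7.14, 6.53, 7.0 and 7.07 in knockout mice, and fell by 1.82 ± 0.21, a wild-type level 3.53 times that of the knockout. Wild-type replicate 1 was again the wild-type mouse nearest to the knockout group. *Sulf2*, an extracellular sulfatase that edits heparan sulfate and so the binding of growth factors, measured 7.44, 7.57, 7.45 and 7.52 in wild-type and 6.86, 6.87, 6.89 and 6.66 in knockout mice. It fell by 0.68 ± 0.08, with knockout replicate 4 below the other 3. *Zfp36l2*, an RNA-binding protein that speeds the decay of mRNAs with AU-rich elements, measured 8.06, 8.71, 8.27 and 8.59 in wild-type and 7.13, 7.21, 7.17 and 7.51 in knockout mice, and fell by 1.15 ± 0.15. *Rnu12*, the U12 small nuclear RNA of the minor spliceosome, was the gene past the threshold that was higher: it measured 6.13, 6.06, 6.51 and 6.40 in wild-type and 7.30, 7.13, 7.31 and 7.02 in knockout mice. It rose by 0.92 ± 0.12, a knockout level 1.89 times that of the wild-type.

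**Figure D3:**
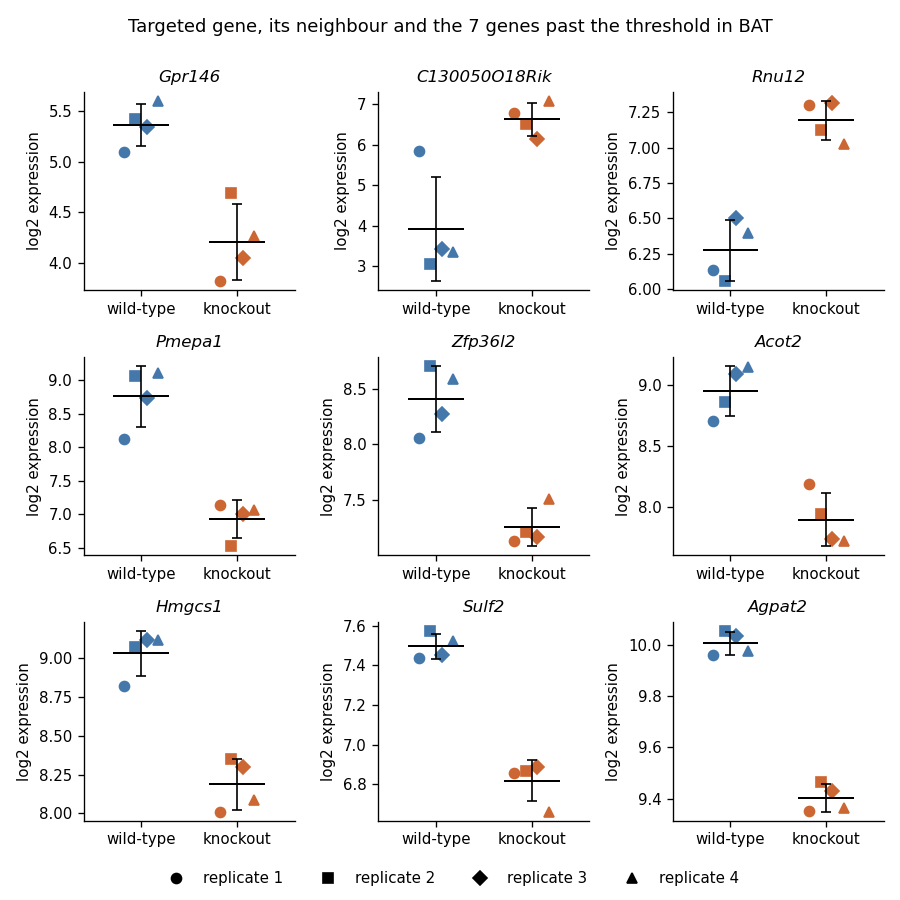
Log2 expression of *Gpr146*, its neighbour *C130050O18Rik* and the 7 genes past the threshold in each BAT sample, blue for wild-type and orange for knockout, with marker shapes for replicates 1 to 4, a line at the mean and bars for the SD (n = 4 mice each). The groups do not overlap in any of the 9 panels, and wild-type replicate 1 (circle) is the lowest wild-type mouse for *Gpr146*, *Pmepa1*, *Zfp36l2*, *Acot2*, *Hmgcs1*, *Sulf2* and *Agpat2*.

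These 7 genes share an adjusted p just under the threshold, and both the scaling and single arrays decide whether they pass. With every array kept, none of the 7 passed with quantile normalization (adjusted p = 0.0664), equal array medians (adjusted p from 0.0543 to 0.0554) or the replicate number as a block (adjusted p from 0.0656 to 0.0754). On all arrays, the 7 passed when dim genes were dropped (adjusted p = 0.0400) or arrays weighted (adjusted p from 0.0447 to 0.0490). They also passed when the prior was trended and robust (adjusted p from 0.0215 to 0.0258). Without wild-type replicate 1, 80 genes passed and the 7 were among them. Without knockout replicate 2, 5 genes passed, *Tspan4*, *Krt79*, *Mettl7a3*, *Gpr146* and *Ubxn8* (*Tspan4* and *Krt79* are named after their values were seen), and none of the 7. Without any other single array, and without the 3 arrays with muscle, no gene passed. The differences themselves kept their direction in each of these fits: over them and the other settings tried, *Pmepa1* ranged from -2.03 to -1.54, *Zfp36l2* from -1.27 to -1.05 and *Rnu12* from 0.84 to 0.99.

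In the other tissues of the series, each fitted within its own table, the 7 genes gave the following differences, side by side and with no test of the difference between tissues. Titles of the liver knockout arrays name the array as knockout but the mouse as wild type. Their source labels name knockout mice, and these were followed. *Zfp36l2* was lower in knockout liver, with a difference of -0.84 (adjusted p = 0.0269), and in eWAT, with one of -0.42 (adjusted p = 0.0382), and its difference was -0.23 in iWAT (adjusted p = 0.52). *Hmgcs1* differed by -1.10 in eWAT (adjusted p = 0.00971), by -0.73 in iWAT (adjusted p = 0.39) and by 0.89 in liver (adjusted p = 0.234). *Agpat2* differed by 0.25 in eWAT, 0.89 in iWAT and -0.31 in liver, none past the threshold. *Pmepa1* differed by -0.07 in eWAT, -0.40 in iWAT and 0.03 in liver, where its level was 3.55 in wild-type mice. *Acot2* differed by -0.34, -0.54 and -0.91 in eWAT, iWAT and liver, and *Rnu12* by 0.72, 0.50 and 0.45. *Sulf2* differed by -0.11, -0.33 and -0.35 in the same order, none past the threshold. *C130050O18Rik* differed by 3.55 in liver (adjusted p = 3.53e-07), 3.06 in eWAT (adjusted p = 0.0117) and 3.08 in iWAT (adjusted p = 0.221). The levels behind these differences are set within a tissue and are not compared across tissues.

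Among the genes with the next smallest p, none of which passed, several act on lipid sensing and membranes. *O3far1*, now named *Ffar4*, the receptor for long-chain omega-3 fatty acids that BAT expresses, measured 6.50 ± 0.23 in wild-type and 5.64 ± 0.11 in knockout mice (SD, n = 4). *St3gal5*, the synthase of the ganglioside GM3, measured 7.41 ± 0.19 and 6.35 ± 0.27 (SD, n = 4), a difference of -1.06 with an adjusted p of 0.0635. *Ehd3*, of endosomal recycling, differed by -0.76, and *Ubxn8* and *Samd4b*, the last a translational repressor, by -0.72 and -0.58. On the higher side, *Gmnn*, which keeps replication origins from firing again, measured 4.44 ± 0.44 and 5.64 ± 0.14 (SD, n = 4), and *Lsm3*, a ring protein that binds U6 small nuclear RNA, differed by 0.69. *Stk38l*, *Hint1*, *Sycp3*, *Zpbp2* and *Mettl7a3* differed by 0.51 to 0.93. Without wild-type replicate 1, 6 of them passed: *St3gal5* and *Gmnn* (adjusted p = 0.0296 each), *O3far1* (adjusted p = 0.0365), *Samd4b* (adjusted p = 0.0419), and *Lsm3* and *Ubxn8* (adjusted p = 0.045 each). None of these genes had overlapping groups, as is so for the 3.31% and 3.92% of genes given above.

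The thermogenic genes the study asks about did not pass the threshold. *Ucp1* measured 11.38, 11.59, 11.37 and 11.55 in wild-type and 11.25, 11.36, 11.03 and 11.41 in knockout mice. The groups overlapped, and the difference was -0.21 with a 95% interval from -0.44 to 0.02 (adjusted p = 0.448), an interval that holds a lower knockout level as well as an equal one. *Dio2*, the deiodinase that makes active thyroid hormone inside the cell, measured 3.85, 4.96, 3.23 and 3.39 in wild-type and 2.26, 2.73, 3.76 and 2.47 in knockout mice, a difference of -1.05 (interval -1.94 to -0.17, adjusted p = 0.302). Its values are low and knockout replicate 3 lay inside the wild-type range. *Prdm16*, the regulator of brown fat identity, differed by -0.22 (interval -0.53 to 0.08).

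The genes named here from the other 2 energy-spending cycles gave small or muscle-bound differences. *Atp2a2*, the SERCA2 pump that returns calcium to the endoplasmic reticulum, measured 8.41, 8.80, 8.52 and 8.56 in wild-type and 8.29, 8.36, 8.29 and 8.40 in knockout mice, a difference of -0.23 (interval -0.45 to -0.02, adjusted p = 0.337). The wild-type values lay above the knockout ones by a narrow margin. *Ryr2*, the calcium release channel of the heart type, differed by -0.24 (interval -0.77 to 0.29). *Ryr1*, the channel of skeletal muscle, followed the muscle arrays, with 3.65, 3.94 and 4.08 on the 3 arrays with muscle and 2.37 to 2.55 on the others, and differed by -0.24 without and 0.01 with the covariate. *Ckmt2*, the mitochondrial creatine kinase of striated muscle, lay at 3.85, 4.82 and 5.28 on the arrays with muscle and at 1.74 to 1.94 on the others, below the median of the table. Its difference was -0.42 without and 0.09 with the covariate, so its sign depends on the muscle term, and *Ckmt1* lay between 1.91 and 2.31 on every array. Of the 7 creatine genes 0 were higher and 1 lower at an unadjusted p below 0.05, and 0 and 2 with the covariate, against 5.25% and 7.44% of all genes. The lowest difference in that list was -0.58, and 1 gene had all knockout values below the wild-type ones, against 3.92% of all genes. Its median was -0.12 (-0.05 with the covariate). Of the 13 calcium genes 0 were higher and 1 lower in both fits, with a median of -0.23 (-0.02 with the covariate).

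The whole thermogenic list had 28 genes measured of 29. Of these, 2 were higher and 7 lower at an unadjusted p below 0.05 in both fits, against 5.25% and 7.44% of all genes. After adjustment 0 passed, and without the 3 arrays with muscle 4 were lower at the unadjusted level. The median difference of the list was -0.15, against 0.00 over all genes. The lower ones were led by *Gyk*, glycerol kinase, which lets brown adipocytes reuse glycerol: it measured 6.71, 8.63, 7.90 and 8.34 in wild-type and 6.24, 6.54, 6.16 and 6.33 in knockout mice. The difference was -1.58, with wild-type replicate 1 close to the knockout mice, and without that replicate it was -1.97 (adjusted p = 0.0037). *Ppargc1a*, the coactivator PGC-1 alpha that drives mitochondrial and thermogenic genes, measured 7.26, 8.22, 6.82 and 7.32 in wild-type and 6.08, 6.02, 6.44 and 6.51 in knockout mice. No knockout mouse reached the wild-type range, and the difference was -1.14 ± 0.25 (adjusted p = 0.13). *Elovl3*, a fatty acid elongase of activated BAT, differed by -1.13, *Otop1* by -0.54 and *Cidea*, a lipid droplet protein, by -0.31. With no overlap between the groups, 3 of the 28 genes were higher and 3 lower, against 3.31% and 3.92% of all genes. Of the 12 brown adipocyte markers 5 were lower and 0 higher at an unadjusted p below 0.05. By sign alone 9 were lower and 3 higher, and 2 were lower and 1 higher with no overlap. The mean of the 12 markers per mouse was 7.46 to 7.71 in wild-type and 7.11 to 7.26 in knockout mice. In a bulk sample, fewer cells of a type and less RNA per cell cannot be told apart.

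**Figure D4:**
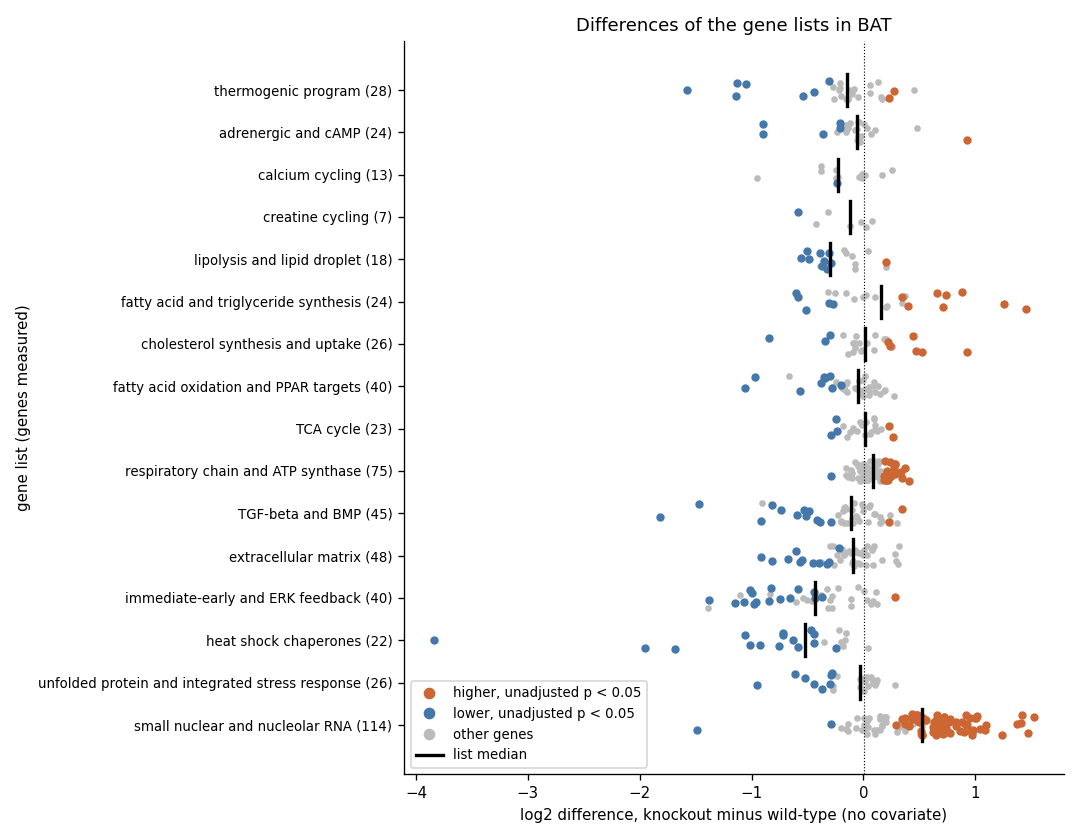
Log2 difference between knockout and wild-type BAT (horizontal axis, no covariate) for each gene of 16 lists, with the number of genes measured in brackets, the list median as a black bar and the median of all genes as a dotted line. Coloured genes have an unadjusted p below 0.05, a level that 5.25% of all genes met upward and 7.44% downward. The medians of the heat shock list (-0.52) and of the small nuclear and nucleolar RNAs (0.52) lie farthest from the dotted line.

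Of the receptors for noradrenaline, *Adrb3* and *Adrb1* measured lower, neither past the threshold. *Adrb3*, the main beta receptor of mouse adipocytes, measured 6.13, 7.15, 6.61 and 6.58 in wild-type and 6.04, 5.82, 5.48 and 5.56 in knockout mice, and *Adrb1* measured 6.06, 6.62, 6.47 and 7.18 against 5.71, 5.62, 5.75 and 5.68. Both were lower in each knockout mouse, by -0.89 and -0.90 (adjusted p = 0.13 and 0.125). Without wild-type replicate 1, *Adrb1* passed with a difference of -1.07 (adjusted p = 0.0365). Of the 24 adrenergic and cyclic AMP genes, 1 was higher and 5 lower at an unadjusted p below 0.05, against 5.25% and 7.44% of all genes. The median was -0.06. The 5 came to 3 without wild-type replicate 2, to 2 without knockout replicate 3 and to 2 without the 3 arrays with muscle. *Prkar2b*, the regulatory subunit of protein kinase A that prevails in fat, was among the lower at -0.21.

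Several lipid droplet proteins measured lower, while the lipases *Pnpla2* and *Lipe* measured close to wild-type. Of the 18 genes of lipolysis and the lipid droplet, 9 were lower and 1 higher at an unadjusted p below 0.05, against 7.44% and 5.25% of all genes, 7 of the 18 had all 4 knockout mice below all wild-type mice, against 3.92% of all genes, and the median was -0.30 without and -0.29 with the covariate. None passed after adjustment. *Cidec*, which fuses droplets, measured 10.42, 10.62, 10.60 and 10.50 in wild-type and 9.82, 10.06, 10.05 and 9.96 in knockout mice, a difference of -0.56 ± 0.09 (adjusted p = 0.0727), and passed without wild-type replicate 1 at -0.60 (adjusted p = 0.045). The droplet coat proteins *Plin4*, *Plin2* and *Plin5* differed by -0.50, -0.49 and -0.37, each with all knockout mice below all wild-type mice. Without the 3 arrays with muscle, 4 of the 18 genes were lower at that level and the median was -0.19. The lipases *Pnpla2* and *Lipe*, named after their values were seen, differed by -0.07 and -0.08.

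Genes of fatty acid and triglyceride synthesis measured in both directions. *Acly*, which makes cytosolic acetyl-CoA from citrate, measured 9.01, 7.64, 7.85 and 7.11 in wild-type and 9.50, 9.24, 9.16 and 9.55 in knockout mice, and *Acaca*, acetyl-CoA carboxylase, measured 9.63, 8.62, 8.61 and 7.96 against 10.28, 9.74, 9.74 and 10.09. Wild-type replicate 1 lay just under the lowest knockout mouse for both, and the other wild-type mice lay well below it. The differences were 1.46 (adjusted p = 0.13) and 1.26 (adjusted p = 0.136), and without wild-type replicate 1 they were 1.83 (adjusted p = 0.00727) and 1.56 (adjusted p = 0.0271). *Me1* and *Tkt*, which supply NADPH, differed by 0.74 and 0.71. In the list of 24 genes, 8 were higher and 5 lower at an unadjusted p below 0.05, against 5.25% and 7.44% of all genes. *Agpat2* was the single one past the threshold. Without wild-type replicate 1 the counts past the threshold were 4 higher and 1 lower, against 18 and 62 of all 24646 genes. The 5 lower ones were *Agpat2*, the desaturase *Fads2* (-0.58), the phosphatidate phosphatase *Lpin2* (-0.51) and both diacylglycerol acyltransferases of the last step of triglyceride synthesis, *Dgat1* (-0.27) and *Dgat2* (-0.31). *Fads2*, *Lpin2*, *Dgat1* and *Dgat2* were named after their values were seen.

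Cholesterol genes did not move together. Of 26 genes, 6 were higher and 3 lower at an unadjusted p below 0.05, against 5.25% and 7.44% of all genes. The median was 0.01, and *Hmgcs1* was the single gene past the threshold. The 6 came to 3 without knockout replicate 1 and to 3 without the 3 arrays with muscle. *Dhcr7*, the last enzyme of the pathway, measured 5.11, 5.15, 4.91 and 5.03 in wild-type and 5.62, 5.37, 5.54 and 5.55 in knockout mice, a difference of 0.47 with no overlap (adjusted p = 0.106). *Fdft1*, squalene synthase, and *Pmvk*, phosphomevalonate kinase, differed by 0.92 and 0.44, and in *Fdft1* wild-type replicate 1 at 9.23 lay inside the knockout range. *Srebf2*, the transcription factor of the pathway, differed by -0.30 with overlapping groups. The promoter window of *Hmgcs1* is shown because it is the gene of the pathway that passed: it is the stretch of 250 bases before the RefSeq start, at chr13:119690101-119690350 of GRCm38.p6 on the plus strand, with the sterol regulatory letters in capitals.
Hmgcs1: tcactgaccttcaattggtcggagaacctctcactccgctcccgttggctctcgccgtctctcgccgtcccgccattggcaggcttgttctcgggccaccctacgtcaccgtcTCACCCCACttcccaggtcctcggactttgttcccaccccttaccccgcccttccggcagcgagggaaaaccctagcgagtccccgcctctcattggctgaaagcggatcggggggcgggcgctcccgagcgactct
The letters TCACCCCAC in it match TCACNCCAC, searched on both strands, and start 137 bases before the RefSeq start. That motif is held by 1.05% of the 32851 windows of the same length in the RefSeq table, and by 1 of the 18 genes of the cholesterol list with a window there. A match describes the letters and was not tested as a binding site.

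Fatty acid oxidation genes had small differences downward. Of 40 genes, 0 were higher and 9 lower at an unadjusted p below 0.05 in both fits, against 5.25% and 7.44% of all genes, and the median was -0.05. Apart from *Acot2*, the carnitine carrier *Slc25a20* differed by -0.38, carnitine palmitoyltransferase *Cpt2* by -0.35 and the electron transfer flavoprotein dehydrogenase *Etfdh* by -0.30. Respiratory chain and ATP synthase genes had small differences upward instead: 19 of 75 were higher and 1 lower at that level, 16 and 2 with the covariate, and the median was 0.09. *Ndufa5* of complex I measured 7.77, 7.59, 7.78 and 7.66 in wild-type and 8.08, 8.07, 8.0 and 8.01 in knockout mice, a difference of 0.34 with an adjusted p of 0.136. *Atp5k*, *Atp5o* and *Uqcrq* differed by 0.33, 0.37 and 0.28, and each had every knockout mouse above every wild-type mouse. With no overlap, 21 of the 75 were higher and 4 lower, against 3.31% and 3.92% of all genes. Without the 3 arrays with muscle, 7 of 75 were higher and 0 lower at an unadjusted p below 0.05, and without wild-type replicate 2 there were 12 higher. The TCA cycle had 2 higher and 3 lower of 23 genes, with a median of 0.01.

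Heat shock chaperones, which refold proteins and are switched on by HSF1, showed the largest single difference of the table. *Hspa1b*, the inducible HSP70, measured 3.89, 8.02, 8.36 and 7.81 in wild-type and 2.35, 3.54, 3.50 and 3.34 in knockout mice. Wild-type replicate 1 lay just above the highest knockout mouse and far below its own group, and the difference of -3.84 ± 0.83 did not pass (adjusted p = 0.127). Without that replicate, the wild-type mouse nearest to the knockout group, it was -4.88 (adjusted p = 0.000498). *Hspa1a*, a near copy whose probes may share its signal, differed by -1.69 and *Dnajb1*, its co-chaperone, by -1.06, both past the threshold without that replicate (adjusted p = 0.0107 and 0.045), and *Hspb8* by -1.02. Of the 22 genes, 15 were lower and 0 higher at an unadjusted p below 0.05, against 7.44% and 5.25% of all genes. The median was -0.52. The mean of the list was 5.75, 6.69, 6.58 and 6.70 in wild-type and 5.70, 5.74, 5.68 and 5.58 in knockout mice, with wild-type replicate 1 at the knockout level. Without it, 18 were lower and 9 of these passed the threshold, and without the 3 arrays with muscle 8 were lower at an unadjusted p below 0.05. The muscle slope of none of the 4 named genes passed, and with the covariate *Hspa1b* differed by -3.57.

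The windows before the starts of the *Hspa1b* and *Hspa1a* genes are shown because of that difference, at chr17:34959239-34959488 and chr17:34972157-34972406 of GRCm38.p6. Both are on the minus strand, with letters that match a short heat shock pattern in capitals.
Hspa1b: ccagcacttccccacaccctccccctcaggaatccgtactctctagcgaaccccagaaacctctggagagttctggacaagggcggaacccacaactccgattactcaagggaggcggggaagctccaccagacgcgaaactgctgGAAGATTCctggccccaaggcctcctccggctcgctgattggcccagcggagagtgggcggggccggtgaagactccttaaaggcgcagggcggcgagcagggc
Hspa1a: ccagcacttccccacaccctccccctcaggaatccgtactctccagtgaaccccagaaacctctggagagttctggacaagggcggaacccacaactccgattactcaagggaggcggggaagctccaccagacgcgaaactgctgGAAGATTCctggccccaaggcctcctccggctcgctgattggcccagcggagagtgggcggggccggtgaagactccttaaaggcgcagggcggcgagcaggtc
The 2 windows differ at 3 of 250 bases, an identity of 98.8%. In both the letters GAAGATTC, a match to GAANNTTC that reads the same pattern on either strand, start 104 bases before the RefSeq start. The pattern is held by 6.69% of the 32851 windows, and by 7 of the 17 heat shock genes with a window, 3 of them among the 11 that were lower at an unadjusted p below 0.05. Whether HSF1 binds there was not tested.

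Immediate-early genes and the feedback inhibitors of ERK were lower in part. Of 40 genes, 15 were lower and 1 higher at an unadjusted p below 0.05, against 7.44% and 5.25% of all genes. *Zfp36l2*, given above, is among the 15 and was the single one past the threshold. The median of the list was -0.44 (-0.40 with the covariate). *Ier3*, an early response gene, measured 5.38, 6.78, 6.85 and 5.73 in wild-type and 4.90, 4.97, 4.95 and 4.40 in knockout mice, a difference of -1.38 (adjusted p = 0.132), and passed without wild-type replicate 1 at -1.65 (adjusted p = 0.045). *Btg1*, an antiproliferative gene, differed by -0.59, and the Krüppel-like factors *Klf4* and *Klf2* by -1.0 and -0.96. *Klf2* had a muscle slope past the threshold (adjusted p = 0.0434), and with the covariate its difference was -0.76. The mean of the list was 5.68, 5.85, 5.48 and 5.31 in wild-type and 4.95, 5.17, 5.53 and 4.67 in knockout mice. Here wild-type replicate 1 lay with its group, and knockout replicate 3 lay among the wild-type mice. Without the 3 arrays with muscle, 8 genes were lower and 1 higher at that level, with a median of -0.37, and without wild-type replicate 2 there were 9 lower. *Dusp1*, the phosphatase that ends MAP kinase signals, was named after its values were seen: it measured 7.83, 8.32, 7.43 and 6.91 in wild-type and 6.30, 7.20, 7.28 and 5.65 in knockout mice, a difference of -1.02 with overlap (adjusted p = 0.295). Its window, chr17:26508473-26508722 of GRCm38.p6 on the minus strand, is shown as an example from a cyclic AMP responsive gene, with letters that match the response element in capitals.
Dusp1: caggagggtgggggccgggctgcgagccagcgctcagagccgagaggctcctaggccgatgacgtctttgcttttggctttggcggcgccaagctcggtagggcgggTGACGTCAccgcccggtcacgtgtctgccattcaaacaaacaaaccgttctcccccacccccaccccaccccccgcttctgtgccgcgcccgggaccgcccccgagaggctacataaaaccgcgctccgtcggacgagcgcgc
The letters TGACGTCA, the same on both strands, start 143 bases before the RefSeq start and are held by 1.55% of all windows and by 4 of the 31 list genes with a window. Of the 12 list genes with a window that were lower, 1 holds them. Binding at these letters was not tested.

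**Figure D5:**
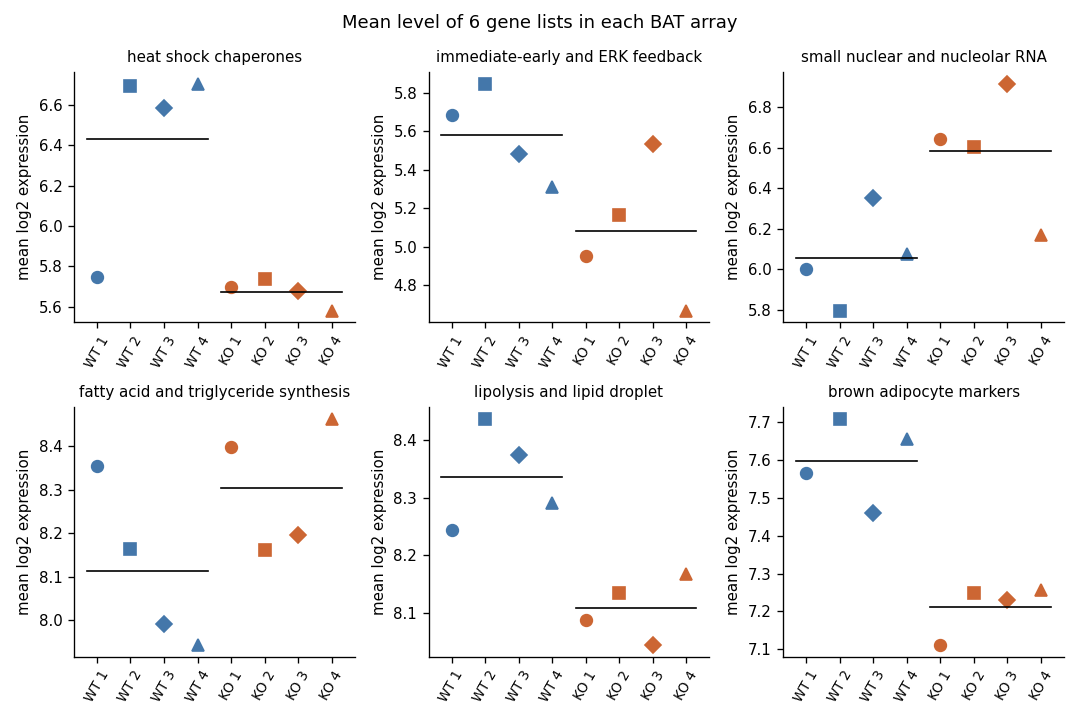
Mean log2 expression of 6 gene lists in each BAT array, blue for wild-type (WT) and orange for knockout (KO), with marker shapes for replicates 1 to 4 and a line at the group mean (n = 4). WT 1 lies at 5.75 for heat shock chaperones, beside the knockout mice at 5.58 to 5.74, while for small nuclear and nucleolar RNA KO 4 at 6.17 lies inside the wild-type range of 5.80 to 6.35.

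TGF-beta and matrix genes beyond *Pmepa1* and *Sulf2* had further members lower. Of 45 TGF-beta and BMP genes, 2 were higher and 12 lower at an unadjusted p below 0.05, against 5.25% and 7.44% of all genes. Their median was -0.11. The ligand *Tgfb1* measured 5.58, 5.83, 5.42 and 5.58 in wild-type and 4.95, 5.26, 5.06 and 5.20 in knockout mice, a difference of -0.48 with no overlap. Its receptor *Tgfbr1* differed by 0.34, also with no overlap, so ligand and receptor lay in opposite directions. The corepressor *Ski* and the endothelial co-receptor *Eng* differed by -0.59 and -0.74. Of 48 matrix genes, 0 were higher and 11 lower, against the same shares of all genes, with a median of -0.10. *Mmp12*, the elastase of macrophages, measured 4.85, 4.21, 4.17 and 4.52 in wild-type and 3.02, 3.84, 3.68 and 3.56 in knockout mice (adjusted p = 0.125), and *Timp3*, *Sparc* and *Sulf1* differed by -0.57, -0.31 and -0.33. Of 12 macrophage markers, 3 were lower and 0 higher at that level, 7 were lower without knockout replicate 2 and 5 without the 3 arrays with muscle, and their mean per mouse was 4.61 to 5.28 in wild-type and 4.33 to 5.08 in knockout mice, and *Cd68* differed by -0.67. Of 9 markers of lipid-associated macrophages 2 were lower, or 4 with either wild-type replicate 3 or knockout replicate 2 left out, and 6 with the arrays with muscle left out. The 11 matrix genes came to 17 without knockout replicate 2 and to 7 without knockout replicate 3, and the 12 TGF-beta and BMP genes to 5 without the arrays with muscle. The part of macrophages in the matrix values was not tested.

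Many small nuclear and nucleolar RNAs measured higher. Of 114 genes, 74 were higher and 2 lower at an unadjusted p below 0.05, 81 and 2 with the covariate, and the median was 0.52 (0.54 with the covariate), against 5.25% and 7.44% of all genes and a median of 0.00. Only *Rnu12* of them passed after adjustment. The mean of the class was 6.00, 5.80, 6.35 and 6.07 in wild-type and 6.64, 6.61, 6.91 and 6.17 in knockout mice, so that knockout replicates 1 to 3 exceeded the wild-type range and knockout replicate 4 fell inside it. Without the 3 arrays with muscle 62 were higher and 1 lower, with a median of 0.54. At an unadjusted p below 0.05, both families of modification guides had members higher: 30 of 34 H/ACA guides (Snora, pseudouridylation) with a median of 0.74, and 33 of 64 C/D guides (Snord, ribose methylation) with a median of 0.48. *Snora30* measured 6.62, 5.67, 7.08 and 6.14 in wild-type and 8.18, 7.54, 8.0 and 7.28 in knockout mice, a difference of 1.38, and *Snora74a* differed by 1.10. *Rnu1b1*, a U1 RNA of the major spliceosome, measured 7.36, 6.83, 7.63 and 7.28 in wild-type and 7.97, 8.34, 8.31 and 8.10 in knockout mice, a difference of 0.90 (adjusted p = 0.0901). *Rnu11* of the minor spliceosome differed by 0.29. *Snord14e*, which lies in an intron of *Hspa8*, went against the rest and overlapped between the groups: it measured 7.76, 8.20, 8.47 and 6.97 in wild-type and 6.66, 5.98, 6.97 and 5.83 in knockout mice, a difference of -1.49, beside -0.75 for *Hspa8* itself, which passed without wild-type replicate 1 at -0.93 (adjusted p = 0.0455). *Snord88c* was the other one lower at that level, at -0.29 with no overlap, and *Snora35*, at -0.14, also had all knockout values below the wild-type ones. *Rnu11*, *Snord14e*, *Snord88c*, *Snora35* and *Hspa8* were named after their values were seen. These RNAs have no poly(A) tail and copies of one family can share probes, and how much of a small RNA the extraction kept was not tested.

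Of the other lists, none had a gene past the threshold with all 8 arrays. Their counts at an unadjusted p below 0.05 stand against 5.25% of all genes higher and 7.44% lower. Among 26 genes of the unfolded protein and integrated stress responses 8 were lower and 0 higher at an unadjusted p below 0.05, with *Sesn2* at -0.96, *Slc3a2* at -0.61 and the chaperone *Hspa5* at -0.44. Ribosomal proteins had 9 higher and 2 lower of 48, with 14 higher under quantile normalization, 5 without wild-type replicate 2 and 2 without the 3 arrays with muscle. Branched-chain amino acid breakdown had 5 higher and 2 lower of 24, or 1 and 2 without the 3 arrays with muscle. With no overlap 4 were higher and 2 lower, against 3.31% and 3.92% of all genes. In that list *Ppm1k*, the phosphatase that activates the dehydrogenase complex, differed by 0.93, and *Bckdk*, the kinase that opposes it, by -0.37. Both had no overlap (adjusted p = 0.108 and 0.13). Glucocorticoid and FoxO targets had 2 higher and 6 lower of 26, with *Klf15* at 0.66 and *Zbtb16* at -0.77. Clock genes had 1 higher and 1 lower of 21, with *Bhlhe41* at 0.64. The glucose genes had 4 higher and 3 lower of 30, with *Pygl*, glycogen phosphorylase, at 0.85, or 1.07 without wild-type replicate 1, where it passed (adjusted p = 0.0271), and *Pck1*, of glyceroneogenesis in fat, at -0.29. Adipocyte genes had 1 higher and 4 lower of 30, with *Cebpb* at -0.70 and *Cfd* at 0.49. Interferon-stimulated genes had 6 lower and 0 higher of 31, but 2 and 2 with quantile normalization, 3 and 2 without wild-type replicate 1, 3 lower without wild-type replicate 4 and 2 lower without knockout replicate 1, and they had 9 lower without the 3 arrays with muscle. Of 10 endothelial, 7 T cell, 6 erythrocyte and 9 nerve markers, 2, 0, 0 and 0 were lower and 0, 1, 1 and 1 higher. The 2 endothelial ones came to 3 without wild-type replicate 1, and to 0 without knockout replicate 2 or without the 3 arrays with muscle.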

How the data were processed

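RNA was extracted from each fat depot with Trizol, and 100 ng of total RNA was labelled and hybridised to an Affymetrix Mouse Gene 2.1 ST array. The authors deposited 1 table per tissue with log2 values, 1 value per gene symbol. Software, normalization and probe summary are not given in the sources used here, so the scale could not be rebuilt. Columns with a core facility's comparisons were not used. The 8 BAT columns were assigned to mice by the labels, each mouse counted as 1 replicate.

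Each gene was fitted with limma 3.58.1 in R 4.3.3 (lmFit, eBayes), knockout against wild-type, without and with the muscle covariate, and p-values were Benjamini-Hochberg adjusted over all genes. The threshold was an adjusted p of 0.05. The 5 genes of the covariate were left out of the fit that holds it. Intervals are 95% intervals and errors are SEs of that fit unless SD is written. Single genes were also given a two-sided exact permutation test over 70 relabelings. The number of arrays limits the precision. The scripts were tested on simulated data.

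Gene lists are described by counts and medians beside those of all genes, with no test over a list. The members and lists were chosen with earlier results of these data known. Named genes were *Gpr146*, its neighbour, the genes past the threshold, those of next smallest p, the genes of the study's thermogenic question and, of each list, members past the threshold with up to 4 further ones of smallest p. Symbols were matched to RefSeq (GRCm38.p6), 21227 by symbol and 2307 by an older symbol, with 1112 unmatched, and promoter windows are RefSeq sequence.

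Alternatives were a trended and robust prior, array weights, leaving out dim genes, quantile normalization, equal array medians, the replicate number as a block, each mouse left out, another set of muscle genes for the covariate, and the methods' t-test. Leaving out the 3 arrays with muscle was added after seeing the data. Values of some list members are not reported here, though the counts of their lists include them.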

Additional observations from a re-analysis of the deposited data

Results flagged for a closer look

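In these cases 1 of 4 mice lay far from the other 3 of its group, which chance does in about 1 in 20 groups. Both genotypes were checked at *Gpr146*, its neighbour, the genes past the threshold, the thermogenic genes of the study, the muscle mean and every list mean. With that many groups, chance alone gives some such cases, and cases that share genes or an array are not separate. Wild-type replicate 1 lay apart at *C130050O18Rik* (5.85), *Hmgcs1* (8.82) and the mean of the heat shock chaperones (5.75), each time on the side of the knockout mice.

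Knockout replicate 2, the knockout array with muscle, lay apart at the mean of the 5 muscle genes (8.22), the skeletal muscle markers (6.91), the slow muscle fiber markers (3.70), the creatine cycling list (4.25), *Ckmt2* (5.28) and *Ryr1* (4.08). It also lay apart in the means of adipocyte identity genes (7.08), TGF-beta and BMP genes (4.75) and the unfolded protein and integrated stress response (4.75). The part of muscle in the last 3 was not tested.

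*Sulf2* in knockout replicate 4 (6.66) and the mean of interferon-stimulated genes in knockout replicate 1 (3.97) were also apart from their groups.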

How the results depend on the processing

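The number of genes past the threshold was sensitive to the fit. Without the covariate it was 7, and it was 0 with quantile normalization, 0 with equal array medians and 0 without the 3 arrays with muscle, where fewer samples were fitted. Dropping dim genes gave 8 without the covariate, as did weighting the arrays, and a prior both trended and robust gave 10. Leaving out 1 mouse gave 0 to 80 genes without the covariate and 0 to 39 with it, the highest without wild-type replicate 1 in both. With the covariate, a trended and robust prior gave 3 genes. The methods' t-test gave 2803 genes at its unadjusted threshold and 0 after Benjamini-Hochberg adjustment. *Gpr146* ranged from -1.32 to -1.03 when 1 mouse was left out, and passed when wild-type replicate 1 (-1.25) or knockout replicate 2 (-1.32) was the mouse left out. With the replicate number as a block, 0 genes passed in either fit. Samples of the same number correlated in their deviations with r of 0.156, 0.123, 0.012 and 0.222, and only some correlated best with their own number, so the numbers were not taken to pair the mice. Over all genes, the split at an unadjusted p below 0.05 was 1294 higher and 1833 lower, 1515 and 1432 with quantile normalization, and 1097 and 2029 with equal medians.

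The sign turned for 3 genes with differences near 0 or bound to muscle. *Ckmt1* was -0.0062 with quantile normalization and -0.045 to 0.089 when 1 mouse was left out. With the covariate it was -0.0074 with array weights, -0.027 with quantile normalization, -0.012 with equal medians, -0.018 with the replicate block and -0.069 to 0.075 when 1 mouse was left out. *Ckmt2* was -1.29 to 0.15 when 1 mouse was left out, the highest without wild-type replicate 3, and with the covariate -0.21 to 0.26 when 1 mouse was left out. *Ryr1* was -0.64 to 0.031 when 1 mouse was left out and 0.028 without the arrays with muscle, and with the covariate -0.057 to 0.068 when 1 mouse was left out and -0.011 with a covariate from other muscle genes. The cause was not tested.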
